A study of Mus musculus with 19 samples.

Results

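The expression of 10 transcription factors of the erythroid and blood progenitor programme was followed in mouse yolk sac, fetal liver and cystic embryoid bodies (cEBs). The factors were Gata1, Gata2, Klf1, Tal1, Runx1, Lmo2, Nfe2, Gfi1b, Myb and Zfpm1, taken by gene symbol. All 10 were found, with 18 RefSeq transcript rows, among 23337 gene symbols and 30455 transcript rows. Where a gene had several transcripts, the one with the most reads on average stands for it.

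RNA-seq was made from 11 libraries. The tissues came from FVB mice, and each tissue sample pooled a whole litter. There was 1 library of visceral yolk sac endoderm (ysE) at E12.5, and there were 2 each of E9.25 ysE, E9.25 visceral yolk sac (VYS) mesoderm and E12.5 fetal liver. The mesoderm samples also hold the blood vessels and basement membrane of the yolk sac. The cEBs are fluid-filled aggregates of differentiating ES cells with an outer epithelium. They were sampled at 10 and 15 days (d10 and d15) from 2 C57Bl/6x129 ES clones, A9 (XY) and JN (XX), with 1 library per clone and day. Library protocols followed the tissue. E9.25 ysE, mesoderm and the JN cEBs were made with a dUTP protocol, liver and the A9 cEBs with ScriptSeq, and E12.5 ysE without strand marking. Clone and protocol therefore cannot be told apart in the cEBs. Whole genome bisulfite sequencing (WGBS) covered E12.5 ysE, E12.5 liver and d15 cEBs from reciprocal CAST and FVB crosses, with 1 library per cross direction and the cEBs from clones CF-C2 and FC-A2. H3K4me3 ChIP-seq was made from intact E12.5 VYS of FVB mice, which holds endoderm and mesoderm.

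Blood formation in the mouse starts in the mesodermal blood islands of the yolk sac, which give rise to primitive erythroid cells, and moves to the fetal liver, where definitive erythroid cells mature among hepatoblasts. GATA2 acts in stem and progenitor cells, and GATA1 takes its place at many DNA sites as erythroid cells mature. GATA1 works with its cofactor FOG1, the product of Zfpm1, and in a complex with TAL1, the bridging protein LMO2 and LDB1. KLF1 activates adult globin and other red cell genes, NFE2 binds the globin control region, GFI1B represses progenitor genes, RUNX1 is needed for the emergence of blood stem cells from endothelium, and MYB is required for definitive but not primitive erythropoiesis.

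Of the 8 members with a start site in the RefSeq promoter table (GRCm38.p6, the mm10 build of the deposited files), 3 hold the letters GATAA or their reverse complement within the 250 bases before a start. Counted by start this is 3 of 11, where 22.6% of the 32851 promoters in the table hold them. These are Klf1, Tal1 at the first of its 2 starts, and Gfi1b. Gata1 shared the large difference between blood-forming and other tissues given below, and its start holds no match. The 3 are shown because they hold the letters and their transcripts shared this difference. Each is written 5′ to 3′ on the gene's strand and ends 1 base before the start. The capitals mark GATAA or, on the other strand, TTATC, whose first base lies 80 bases before the start in Klf1, 205 in Tal1 and 119 in Gfi1b. The fourth sequence lies before the second of the 2 Runx1 starts, the member start with the highest H3K4me3 peak score. It holds no GATAA on either strand.
Klf1, chr8:84901732-84901981, plus strand: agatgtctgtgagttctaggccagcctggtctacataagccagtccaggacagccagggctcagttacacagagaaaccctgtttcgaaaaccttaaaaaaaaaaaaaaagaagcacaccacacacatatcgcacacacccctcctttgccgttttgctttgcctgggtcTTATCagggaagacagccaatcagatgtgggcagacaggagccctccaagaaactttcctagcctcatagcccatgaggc
Tal1, chr4:115056176-115056425, plus strand: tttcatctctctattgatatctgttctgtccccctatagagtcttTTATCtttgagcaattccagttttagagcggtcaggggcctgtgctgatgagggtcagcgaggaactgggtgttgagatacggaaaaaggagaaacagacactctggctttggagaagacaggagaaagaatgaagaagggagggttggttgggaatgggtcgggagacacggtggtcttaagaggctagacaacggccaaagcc
Gfi1b, chr2:28621983-28622232, minus strand: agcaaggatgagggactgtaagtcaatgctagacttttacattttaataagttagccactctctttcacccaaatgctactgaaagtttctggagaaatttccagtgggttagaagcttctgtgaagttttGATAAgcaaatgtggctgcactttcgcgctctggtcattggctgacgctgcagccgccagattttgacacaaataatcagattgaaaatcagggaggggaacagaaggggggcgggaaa
Runx1, chr16:92697330-92697579, minus strand: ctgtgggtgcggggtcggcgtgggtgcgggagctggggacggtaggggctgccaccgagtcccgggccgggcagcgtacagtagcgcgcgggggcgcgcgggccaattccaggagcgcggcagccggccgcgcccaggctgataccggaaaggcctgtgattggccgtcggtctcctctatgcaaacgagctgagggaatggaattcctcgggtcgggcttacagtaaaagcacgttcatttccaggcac
A match is only a description of these letters. Letters for E-box, KLF and RUNX sites were searched as well and are not listed here. The Runx1 sequence holds 3 KLF matches, where 45.9% of all promoters hold any. The Runx1 sequence has 67.6% GC and 27 CpGs, against medians of 52.4% and 6 over all promoters in the table, and the Klf1, Tal1 and Gfi1b sequences have 3, 6 and 5 CpGs.

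Libraries held between 40453779 and 169981821 counts over all transcripts, the E12.5 ysE library being the smallest. Summed marker levels were checked against the labels. The summed level of 5 yolk sac endoderm markers was 8737 to 9832 RPKM (reads per kilobase of transcript, scaled to library size) in E9.25 ysE and 978 to 1710 in mesoderm, that of 5 yolk sac mesoderm markers 574 to 733 in mesoderm and 18.0 to 28.9 in E9.25 ysE, and that of 4 hepatoblast markers 429 to 917 in liver and 346 in E12.5 ysE. Single hepatoblast markers went the other way, Hnf4a being at 109 in E12.5 ysE and at 11.6 and 14.0 in liver. All levels below are RPKM as deposited, and all fold changes are log2 values ± SE from an edgeR quasi-likelihood fit to the counts of all 5 tissues, with p-values adjusted by Benjamini-Hochberg over 24858 transcripts and a 5% threshold. In these bulk samples fewer cells of a type and less RNA per cell cannot be told apart.

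**Figure D1:**
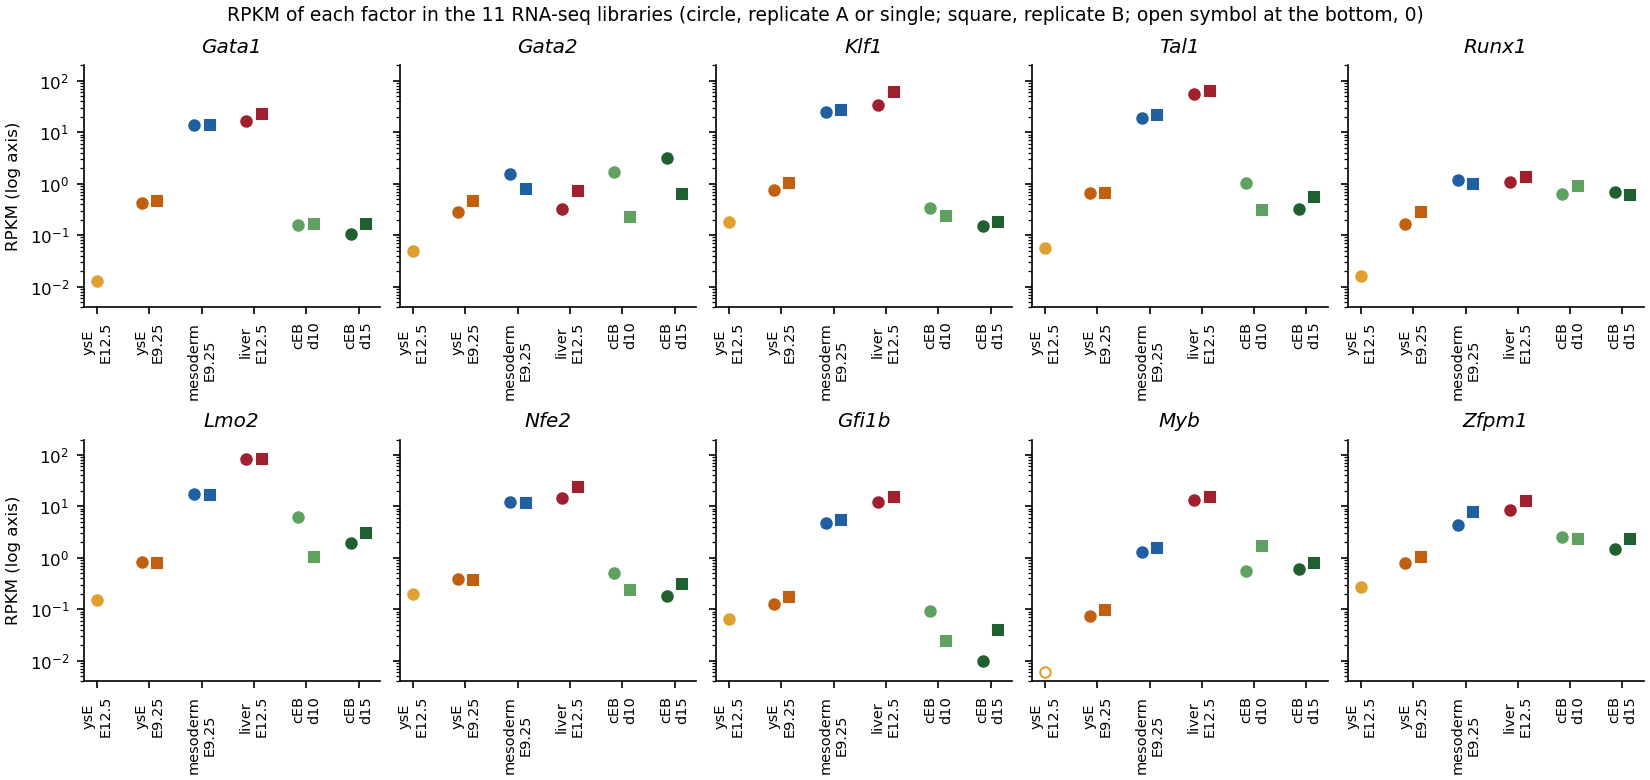
RPKM of the 10 factors on a log axis, with 1 point for each of the 11 libraries grouped by tissue (circle, replicate A or the single library, square, replicate B). Gata1 lies at 13.7 to 22.4 in mesoderm and liver and below 0.5 elsewhere, whereas Gata2 reaches its highest level, 3.16, in a d15 cEB library.

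The first comparison set the 2 layers of the E9.25 yolk sac against each other. Of the 10 factors, 9 were higher in the mesoderm than in the endoderm, where 16.9% of all transcripts were higher. The difference was 4.07 to 4.76 on the log2 scale for 6 of them. Gata1, the master regulator of erythroid maturation, was at 13.8 and 13.7 in the 2 mesoderm libraries and at 0.413 and 0.460 in the 2 endoderm libraries. The replicates of each layer lay close together and far from those of the other (log2 difference 4.66 ± 0.30, adjusted p = 0.000102). Its partner gene Tal1, a helix-loop-helix factor, was at 19.3 and 21.8 in mesoderm and at 0.666 and 0.653 in endoderm (4.64 ± 0.57, adjusted p = 0.000473). Lmo2, whose product links TAL1 to GATA1, was at 17.1 and 16.6 against 0.819 and 0.790 (4.07 ± 0.69, adjusted p = 0.00206). These 3 genes of the complex thus had nearly equal replicates and a gap of similar size between the layers. The gap was smaller for Ldb1, whose product is in the complex too. Ldb1 was at 17.6 and 16.9 in mesoderm and at 2.51 and 3.50 in endoderm, a mean endoderm level of 17.4% of the mesoderm level.

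The factors that act late in the erythroid lineage differed as much. Klf1 had the highest level of all 10 factors in the mesoderm, at 24.2 and 27.2, against 0.743 and 1.04 in the endoderm (4.53 ± 0.43, adjusted p = 0.00021). Nfe2, the large subunit of the globin-activating factor, was at 12.1 and 11.8 against 0.397 and 0.365 (4.66 ± 0.48, adjusted p = 0.000272). Gfi1b, the repressor, was at 4.72 and 5.55 against 0.129 and 0.175 (4.76 ± 0.62, adjusted p = 0.000614). The layers did not overlap for any of these late factors, nor for Gata2, which did not pass the test below. How many of all transcripts did not overlap was not counted.

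The remaining 4 factors showed smaller or uncertain differences. Myb was at 1.27 and 1.58 in mesoderm and at 0.073 and 0.096 in endoderm (3.75 ± 0.55, adjusted p = 0.00109). Zfpm1 was at 4.44 and 7.88 against 0.797 and 1.04 (2.43 ± 0.38, adjusted p = 0.00139). Runx1 was at 1.18 and 1.005 against 0.165 and 0.285 (1.96 ± 0.37, adjusted p = 0.00354). Runx1 and Zfpm1 thus stood between the erythroid factors and Gata2. Gata2 did not pass the test: it was at 1.52 and 0.788 in mesoderm and at 0.284 and 0.458 in endoderm (1.31 ± 1.01, adjusted p = 0.368). Its values in the 2 mesoderm libraries differed more in proportion than those of any other factor, and it passed (adjusted p = 0.0148) when only these 2 tissues were in the fit. In edgeR and DESeq2 alternatives and with each library left out, 9 or 10 of the factors were called.

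The level in the endoderm was a like share of the mesoderm level for many blood genes. The mean E9.25 ysE level was 2.96% of the mesoderm level for Gfi1b, 3.18% for Gata1, 3.22% for Tal1, 4.78% for Lmo2, 5.92% for Myb and 32.1% for Gata2, with a median of 4.12% over the 10 factors. Some other lists stood at like shares. The median was 3.55% over 16 erythroid target genes (a listed 17th, Ahsp, was not matched and is not analysed here), 3.66% over 6 megakaryocyte markers, 4.14% over 6 endothelial markers and 3.92% over 5 mesoderm markers, while the median was 9.12% over 3 mast cell markers, 11.4% over 10 stem and progenitor factors, 21.7% over 6 macrophage and myeloid markers and 52.3% over 12 genes of partner proteins. None of the mesoderm or endothelial markers was at 0 in both E9.25 ysE libraries. The part of cells from the adjoining mesoderm in the E9.25 ysE values was not tested.

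**Figure D2:**
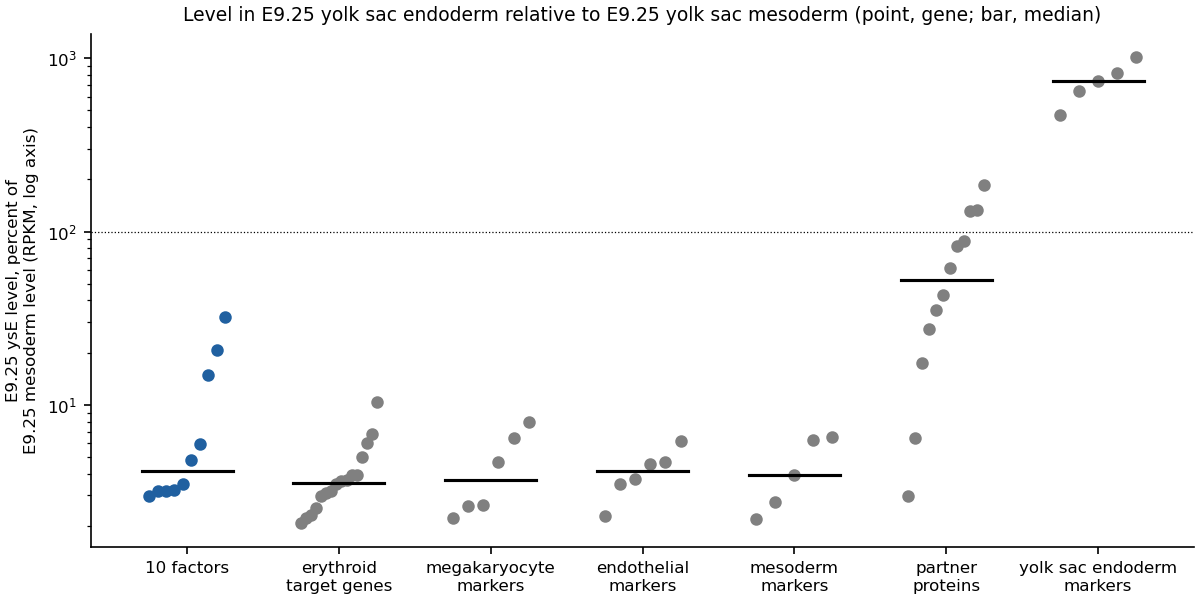
Mean E9.25 ysE level as a percentage of the mean E9.25 mesoderm level on a log axis, with 1 point per gene and a bar at the median of each list (dotted line, equal levels). The 10 factors lie from 2.96% to 32.1%, their median of 4.12% is near those of the erythroid, megakaryocyte, endothelial and mesoderm lists, and the partner genes spread from 2.98% to 185%.

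At E12.5 the single ysE library held less of these factors. Gata1 was at 0.013 RPKM (1 read), Gata2 at 0.050, Klf1 at 0.181, Tal1 at 0.056, Runx1 at 0.016, Lmo2 at 0.155, Nfe2 at 0.195, Gfi1b at 0.064, Zfpm1 at 0.267, and Myb had no read. Each value lay below both E9.25 ysE libraries, and 5 factors were called lower, where 4.57% of transcripts were, and none higher, where 3.9% were. These were Gata1 (-5.11 ± 0.59, adjusted p = 0.00232), Runx1 (-3.86 ± 0.61, adjusted p = 0.00758), Tal1 (-3.64 ± 0.82, adjusted p = 0.0269), Klf1 (-2.37 ± 0.59, adjusted p = 0.039) and Myb (adjusted p = 0.0415). Against a floor of 3 counts in the E12.5 library, Myb was at least 4.62-fold lower than at E9.25. The ratio for Gata1 was 34.3-fold with a 95% counting interval of 6.15 to 1354. The fold changes of the others, Gfi1b, Nfe2, Zfpm1, Lmo2 and Gata2, were -1.05 to -2.96 and did not pass. The summed endothelial markers moved in the same direction, from 6.15 to 8.47 at E9.25 to 0.372 at E12.5 with Emcn at 0, and mesoderm markers went from 18.0 to 28.9 at E9.25 to 10.96 at E12.5. The summed macrophage and myeloid markers rose, being 3.73 and 3.66 at E9.25 and 9.75 at E12.5. Of these Csf1r was at 0.884 and 1.15 at E9.25 and at 8.59 at E12.5. The median log2 difference of the 6 myeloid markers was -1.77, and none was called. The part of these cell types in the result was not tested, and stage and library protocol cannot be told apart. How many of all transcripts lay below both E9.25 ysE libraries was not counted. The median log2 difference over all transcripts was -0.21. The E12.5 library is alone in its group, so its spread was taken from the other tissues, and the count of calls was 2 without either E9.25 ysE library and 3 without either mesoderm library.

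The next question was how the definitive site of erythropoiesis compares with the yolk sac site. In E12.5 liver, 5 factors were higher than in E9.25 mesoderm, where 17.8% of transcripts were, and none was lower, where 21% were. The largest difference was for Myb, which was at 13.4 and 15.0 in the liver libraries (3.51 ± 0.54, adjusted p = 0.00148), above both mesoderm libraries by a wide margin. Lmo2 had the highest level of all factors in liver, at 82.3 and 84.3 (2.51 ± 0.64, adjusted p = 0.0133). Tal1 followed at 54.9 and 63.7 (1.73 ± 0.50, adjusted p = 0.0226). Gfi1b was at 12.3 and 15.1 (1.61 ± 0.53, adjusted p = 0.0388), and Klf1 was at 34.0 and 61.2 (1.08 ± 0.37, adjusted p = 0.045). The Klf1 value of liver replicate B was thus far above that of replicate A.

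The other factors did not pass. Gata1 was at 16.3 and 22.4 (0.69 ± 0.25, adjusted p = 0.056), Zfpm1 at 8.60 and 13.0 (0.996 ± 0.36, adjusted p = 0.0533) and Nfe2 at 14.3 and 23.8 (0.86 ± 0.41, adjusted p = 0.122). All 3 lay above both mesoderm libraries, and how many of all transcripts did so was not counted. These 3 factors were called higher with the replicate block (adjusted p = 0.0059 for Gata1, 0.00216 for Zfpm1 and 0.00933 for Nfe2) and in the fit of the 2 tissues (0.0143, 0.0406 and 0.0199). The replicate letters were not taken to pair tissues, so the block is given only as an alternative. Differences between A and B correlated with r = 0.174 for mesoderm and liver. Gata1 and Zfpm1 were called with RLE size factors (0.0276 and 0.0327) and DESeq2 (0.00841 and 0.0129) as well. Runx1 was at 1.06 and 1.35, overlapping mesoderm (0.34 ± 0.35, adjusted p = 0.462). Gata2, at 0.326 and 0.707, lay below both mesoderm libraries (-0.96 ± 1.004, adjusted p = 0.471). The order of the factors differed between both sites: Klf1, Tal1, Lmo2, Gata1 and Nfe2 led in mesoderm, and Lmo2, Tal1, Klf1, Gata1 and Nfe2 in liver. Myb was called in every alternative, but the number of calls depended on single libraries. It was 1 without mesoderm replicate A, 2 without mesoderm replicate B or liver replicate B, and 3 without liver replicate A or either E9.25 ysE library. It was 8 with only these 2 tissues in the fit and 8 with the replicate letter as a block. The number of all transcripts called higher rose too, from 4435 of 24858 to 6277 of 22281 and 6542 of 22949. In the fits that lowered the number of factors called, fewer transcripts in all were called higher as well. Protocol and tissue cannot be told apart in this comparison.

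The 16 erythroid target genes went both ways between liver and mesoderm. Of these 7 were higher and 3 lower, where 17.8% and 21% of transcripts were, with a median log2 difference of 0.69 (1.04 for the factors and -0.09 for all transcripts). The embryonic globin gene Hbb-bh1 was lower in liver (-7.61 ± 1.13, adjusted p = 0.00131), as was Hba-x (-5.81 ± 0.87, adjusted p = 0.00134). The adult globin gene Hbb-b1, which like Hba-a1 can share reads with a near-identical copy, was higher (4.48 ± 1.11, adjusted p = 0.012), as was the red cell membrane gene Ank1 (2.87 ± 0.43, adjusted p = 0.00141). In the progenitor list 4 of 10 genes were higher and 1 lower, with a median of 1.12. Bcl11a, a repressor of embryonic globin genes, was higher in liver (5.70 ± 0.87, adjusted p = 0.00151), and the endothelial and endodermal factor Sox17 was lower (-3.37 ± 0.48, adjusted p = 0.00115). Other blood cells express several of these factors too. The sum of 6 megakaryocyte markers was 99.1 to 159 in liver and 72.8 to 89.9 in mesoderm, that of 6 macrophage and myeloid markers 47.8 to 76.3 and 10.2 to 13.6 with no marker at 0, and that of 3 mast cell markers 0.641 to 0.709 and 0.401 to 0.427 with Mcpt4 at 0 in liver. Outside the blood, 5 of 5 yolk sac mesoderm markers (median -5.20) and 4 of 6 endothelial markers (-1.93) were lower in liver. Of the yolk sac endoderm markers 2 of 5 were lower (-0.56), and 2 of 4 hepatoblast markers were higher (6.88). In each of these lists none was called the other way. The part of all these cells in the differences between liver and mesoderm was not tested.

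Within E12.5, liver was set against ysE. Of the 10 factors 9 were higher in liver, where 23.7% of transcripts were. Their fitted differences ran from 5.30 ± 0.60 for Zfpm1 (adjusted p = 0.00018) to 10.45 ± 0.61 for Gata1 (adjusted p = 2.61e-05), leaving Myb aside, which was at least 978-fold higher against the floor of 3 counts. Gata1 rested on 1 ysE read, which gave a ratio of 1904 with a 95% counting interval of 342 to 75193. Gata2 did not pass (3.32 ± 1.58, adjusted p = 0.113). It passed in DESeq2, with only these 2 tissues in the fit, and without the JN d10 cEB library, with a lowest adjusted p of 0.0139. Markers of other cells were higher in liver too, 5 of 6 for endothelium (median 7.55), 5 of 6 for megakaryocytes (5.96) and 4 of 6 for macrophages and myeloid cells (5.99), where Emcn and Mpo were at 0 in ysE. The megakaryocyte sum was 1.17 in ysE and the myeloid sum 9.75. Of the myeloid markers Csf1r was at 8.59 in ysE, above its 3.31 and 4.99 in liver. Their part in the result was not tested.

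The cEBs were then compared with the blood-forming tissues. Against liver, 9 factors were lower, where 20.9% of transcripts were. Gfi1b was the farthest away, at 0.095, 0.024, 0.010 and 0.040 in the A9 d10, JN d10, A9 d15 and JN d15 libraries, which is 1 to 11 reads (-8.70 ± 0.56, adjusted p = 8.95e-06). Klf1 was at 0.340, 0.238, 0.148 and 0.179 in the same order (-8.05 ± 0.38, adjusted p = 1.89e-06). Gata1 was at 0.158, 0.168, 0.106 and 0.165 (-7.33 ± 0.25, adjusted p = 3.47e-07). The mean cEB level was 0.309% of the liver level for Gfi1b and 0.771% for Gata1. Nfe2, at 0.512, 0.240, 0.178 and 0.314, was lower by a like amount (-6.27 ± 0.38, adjusted p = 6.91e-06).

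Tal1 was at 1.05, 0.301, 0.328 and 0.539 (-7.09 ± 0.47, adjusted p = 1.05e-05), a difference close to that of Gata1. The remaining factors had smaller fitted differences. Lmo2 was at 6.23, 1.06, 1.96 and 3.11 (-5.10 ± 0.54, adjusted p = 0.000119). In Tal1 and Lmo2 the A9 d10 library was the highest of the 4. Myb was at 0.561, 1.68, 0.597 and 0.790 (-4.29 ± 0.42, adjusted p = 8.64e-05), with JN d10 the highest. Zfpm1 was at 2.54, 2.38, 1.49 and 2.36 (-2.63 ± 0.30, adjusted p = 0.000177). Runx1 was at 0.640, 0.903, 0.692 and 0.613 (-1.08 ± 0.30, adjusted p = 0.0156), a call that was lost without liver replicate B (adjusted p = 0.111). Gata2 did not pass, at 1.69, 0.225, 3.16 and 0.619 (1.16 ± 0.91, adjusted p = 0.316). Both A9 libraries lay above the liver libraries, while the JN libraries overlapped them. It was called higher in the cEBs when the A9 libraries were set against liver within the ScriptSeq protocol (adjusted p = 0.0319).

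Markers of other cell types were counted too, where 20.9% of all transcripts were lower in the cEBs than in liver and 24.6% higher. Against liver, 5 of 6 megakaryocyte markers were lower in the cEBs (median -5.45), 4 of 6 macrophage and myeloid markers (-5.39) and 4 of 4 hepatoblast markers (-5.80). The summed megakaryocyte markers were 0.762 to 5.65 in the cEBs, the myeloid markers 3.15 to 9.18 and the hepatoblast markers 4.91 to 19.98, with no marker at 0 in all 4 libraries. Endothelial markers, at 8.17 to 47.4 in the cEBs and 37.1 to 37.7 in liver, had 1 of 6 lower (-0.97), near the background. Of the yolk sac endoderm markers 2 of 5 were higher and 1 lower (0.70), also not far from the background. Of the yolk sac mesoderm markers 3 of 5 were higher and none lower (2.16). The part of these cell types in the factors' differences was not tested.

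**Figure D3:**
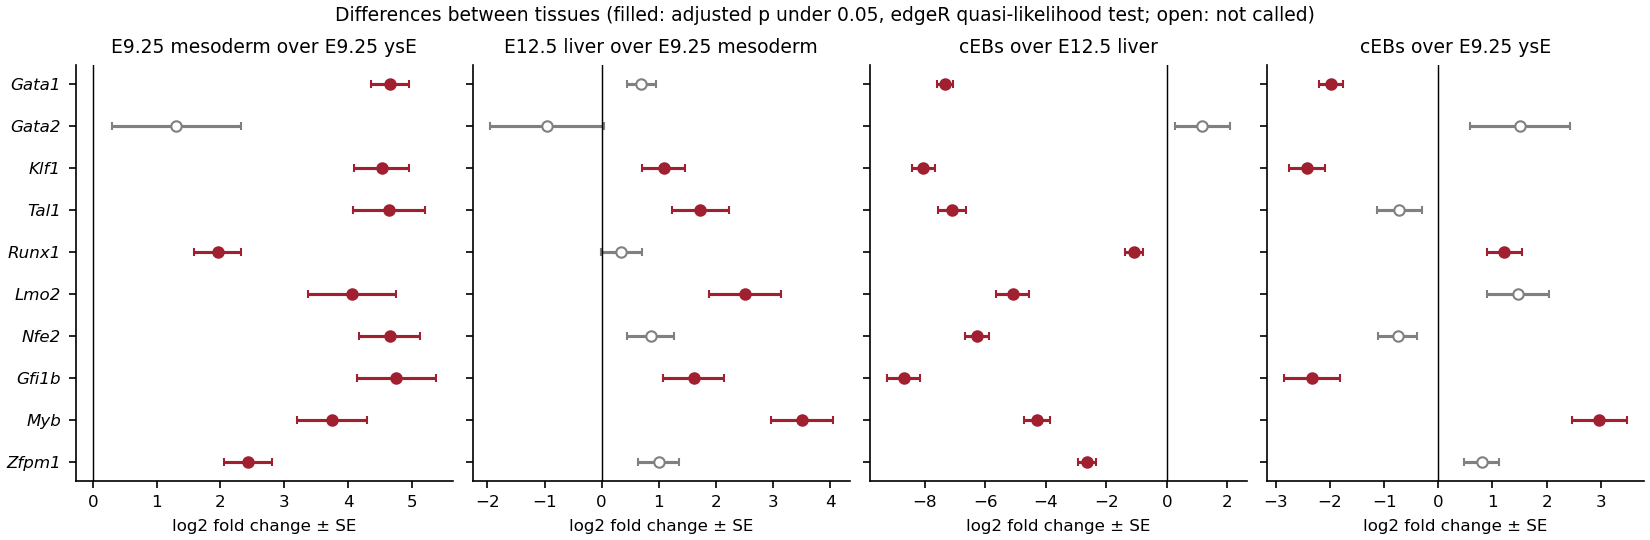
log2 fold change ± SE of each factor in 4 comparisons between tissues, filled where the adjusted p is under 0.05. Between liver and cEBs 9 factors lie left of 0 and Gata2 right of it, and between E9.25 ysE and cEBs the factors fall on both sides.

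Against mesoderm, 7 factors were lower in the cEBs, where 15% of transcripts were, and none was higher, where 13.9% were. The 7 were Gfi1b (-7.09 ± 0.53, adjusted p = 5.17e-05), Klf1 (-6.96 ± 0.36, adjusted p = 1.02e-05), Gata1 (-6.64 ± 0.25, adjusted p = 1.61e-06), Nfe2 (-5.41 ± 0.37, adjusted p = 3.72e-05), Tal1 (-5.36 ± 0.44, adjusted p = 8.68e-05), Lmo2 (-2.59 ± 0.50, adjusted p = 0.00557) and Zfpm1 (-1.63 ± 0.30, adjusted p = 0.00419). Zfpm1 was not called without mesoderm replicate B (adjusted p = 0.0722). Myb (-0.78 ± 0.41, adjusted p = 0.179), Runx1 (-0.74 ± 0.30, adjusted p = 0.0916) and Gata2 (0.21 ± 0.86, adjusted p = 0.876) did not pass, although Myb was called lower without the JN d10 library. With the least abundant transcript of each gene in its place, Runx1 was called lower (adjusted p = 0.0444). The Gata2 difference changed sign within the dUTP libraries, which hold the JN cEBs and the mesoderm (-1.58 ± 0.53, adjusted p = 0.0481). With the factors, 5 of 6 megakaryocyte markers were lower than in mesoderm (median -4.78), 4 of 6 macrophage and myeloid markers (-3.70, 1 higher), 5 of 6 endothelial markers (-2.95) and 3 of 5 yolk sac mesoderm markers (-2.64), the last summing to 36.4 to 199 in the cEBs. Their part in the result was not tested.

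The genes of 12 partner proteins in the same complexes were counted in both comparisons. Between cEBs and liver 6 of 12 were lower and 3 higher in the cEBs, where 20.9% and 24.6% of transcripts were, with a median of -0.94 where the median over all transcripts was 0.20. Between cEBs and mesoderm 2 of 12 were lower, near the background of 15%, and none was higher, where 13.9% of transcripts were. The median log2 difference was 0.14 where the median over all transcripts was 0.03. The 2 were Lyl1, a close relative of Tal1 (-5.52 ± 0.48, adjusted p = 0.000113), and the corepressor gene Cbfa2t3 (-1.64 ± 0.43, adjusted p = 0.0206). Ldb1, whose product joins the GATA1 complex, was at 14.3 to 18.2 in the cEBs and at 17.6 and 16.9 in mesoderm. Kdm1a, the demethylase bound by GFI1B and the partner gene with the highest mean level, was at 53.3 to 87.0 against 47.5 and 45.1 (0.55 ± 0.22, adjusted p = 0.0937). All 16 erythroid target genes were lower in the cEBs than in mesoderm, with a median of -7.63. The difference was largest for the globin genes Hba-a1 (-9.66 ± 1.25, adjusted p = 0.000792) and Hbb-y (-9.65 ± 0.72, adjusted p = 5.01e-05).

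Relatives of the factors in the same families were counted as well. Between cEBs and mesoderm 4 of 16 family members were higher and 1 lower, where 13.9% and 15% of transcripts were, with a median of 0.80. Tal2, a close relative of Tal1, had no read in any of the 5 yolk sac libraries or in liver replicate A, and 2 reads in liver replicate B. In the cEBs it had 95, 289, 37 and 231 reads in the A9 d10, JN d10, A9 d15 and JN d15 libraries, or 1.31, 2.19, 0.565 and 1.63 RPKM. Against a floor of 3 counts in each library this was at least 72.2-fold higher than in mesoderm and at least 84.8-fold higher than in E9.25 ysE. Klf4, a factor of epithelia and pluripotent cells, was higher in the cEBs than in mesoderm (3.65 ± 0.76, adjusted p = 0.0075), and Lmo1 was lower (-2.22 ± 0.59, adjusted p = 0.0206). Mybl2, the relative of Myb in dividing cells, had the highest mean level of the list and did not pass (0.74 ± 0.30, adjusted p = 0.0921).

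The progenitor list went both ways. Against mesoderm 2 of 10 genes were higher in the cEBs and 4 lower, where 13.9% and 15% of transcripts were, with a median of -0.01. The receptor gene Kit was higher (2.55 ± 0.40, adjusted p = 0.00198), as was Sox17 (1.43 ± 0.40, adjusted p = 0.0268). Lyl1 and Fli1, an ETS factor of blood and endothelium (-3.61 ± 0.60, adjusted p = 0.00277), were lower.

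Against E9.25 ysE the factors went both ways. Here 2 were higher in the cEBs, where 27.1% of transcripts were, and 3 were lower, where 23.2% of transcripts were. Both counts are near the background, and the median over the 10 factors was 0.04. Myb (2.97 ± 0.51, adjusted p = 0.00126) and Runx1 (1.22 ± 0.33, adjusted p = 0.0122) were higher, and every cEB library lay above both ysE libraries. Klf1 (-2.43 ± 0.33, adjusted p = 0.000376), Gfi1b (-2.33 ± 0.52, adjusted p = 0.00515) and Gata1 (-1.98 ± 0.23, adjusted p = 0.000154) were lower. Lmo2 (1.48 ± 0.57, adjusted p = 0.0539), Zfpm1 (0.80 ± 0.32, adjusted p = 0.0635), Gata2 (1.51 ± 0.92, adjusted p = 0.195), Tal1 (-0.72 ± 0.42, adjusted p = 0.176) and Nfe2 (-0.75 ± 0.37, adjusted p = 0.112) did not pass. Of the 16 erythroid target genes 15 were lower, with a median of -3.28, and of the 10 progenitor genes 6 were higher, with a median of 1.82. The median over all transcripts was 0.17. Of the markers, 5 of 5 for yolk sac endoderm were lower (median -4.74), 1 of 6 for macrophages and myeloid cells (-1.16) and 1 of 4 for hepatoblasts (-0.02). Higher were 3 of 5 yolk sac mesoderm markers (2.51), 1 of 6 endothelial markers (1.45) and 1 of 6 megakaryocyte markers (0.002). In each of these lists none was called the other way. Their part in the factors' differences was not tested. Leaving out replicate A of E9.25 ysE took the call from Runx1 (adjusted p = 0.0987) and leaving out replicate B took it from Gfi1b (adjusted p = 0.0531). With the least abundant transcript of each gene, Runx1 lost its call (0.68 ± 0.36, adjusted p = 0.138) and Lmo2 gained one (1.55 ± 0.58, adjusted p = 0.0487). The 4 cEB libraries come from 2 clones and entered the fit as 4 replicates. With the replicate letter as a block Zfpm1 was called higher (0.82 ± 0.26, adjusted p = 0.026), as it was within the dUTP libraries (adjusted p = 0.0225). Zfpm1 and Lmo2 were both called with RLE size factors (adjusted p = 0.0407 and 0.0468) and with DESeq2 (0.0212 and 0.0117). Without ysE replicate A 1 factor was called higher, without the A9 d15 library 4 were, and without the A9 d10 library 5 were called lower, Tal1 and Nfe2 joining. Within the dUTP libraries the same number, 5, were called lower.

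The ratio of Gata1 to Gata2, genes whose products trade places during erythroid maturation, was taken within each library. Gata1 was 50.1 and 31.7 times Gata2 in liver, 9.08 and 17.3 times in mesoderm, and 1.45 and 1.004 times in E9.25 ysE. In the cEBs the order was the other way: Gata2 was 10.7 and 29.8 times Gata1 in the A9 libraries at d10 and d15, and 1.34 and 3.75 times in the JN libraries. No cEB library overlapped the ratio of mesoderm or liver. In the E12.5 ysE library Gata2 was 3.85 times Gata1, within the range of the cEBs, a ratio that rests on 1 Gata1 read.

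The genes with the pattern most like Gata1 over the 11 libraries, by Pearson's r of log2(RPKM + 1) among 11951 genes with a mean of at least 1 RPKM, were Slfn9 (0.998), Klf1 (0.998), the red cell membrane gene Epb4.2 (0.998), Lyl1 (0.997) and the Rh glycoprotein gene Rhag (0.997). Nfe2 ranked sixth (0.997), Tal1 22nd and Gfi1b 31st, while Lmo2 (0.911), Zfpm1 (0.889) and Myb (0.780) ranked from 157 to 504. The points are 5 tissues with few libraries each, so that any gene high in mesoderm and liver alone scores near 1. Gata2 had r between -0.07 (Myb) and 0.15 (Lmo2) with 8 of the other factors, Runx1 being under the minimum level and not ranked. Its 5 nearest genes were Pgm1 (0.906), Pdia3 (0.902), Prss35 (0.899), Nucb2 (0.898) and Calu (0.893).

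Within the cEBs the question was whether the factors change between d10 and d15. None of the 9 factors tested was called, and 0% of transcripts were called in either direction. The edgeR fit of the 4 libraries called none of 22452 transcripts, 304 had an unadjusted p under 0.05, and DESeq2 called 11 transcripts higher. With the ES clone as the replicate block, which pairs the libraries, again 0 were called, and 2392 had an unadjusted p under 0.05. Gfi1b fell under the count filter. In the fit without the clone, the d15 over d10 changes of the factors ran from -0.83 ± 0.65 for Klf1 to 1.04 ± 1.24 for Gata2. Within the clones Klf1 fell from 0.340 to 0.148 in A9 and from 0.238 to 0.179 in JN. Gata2 rose from 1.69 to 3.16 in A9 and from 0.225 to 0.619 in JN.

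The clones were then set against each other. Gata2 was at 1.69 and 3.16 in A9 and at 0.225 and 0.619 in JN, so that the clones did not overlap on either day. In a fit of the 4 libraries with clone and day, a comparison chosen after seeing the data, Gata2 was called lower in JN (-2.69 ± 0.31, adjusted p = 0.0119). This is 1 of 9 factors tested, near the background, in which 7.9% of transcripts were lower and 10.1% higher. The call was lost without the JN d10, A9 d15 or JN d15 library, in fits that also held no day term. The differences in these fits were -2.11, -2.06 and -3.45. Gata4 (-1.14 ± 0.16, adjusted p = 0.0185) and Gata6 (-0.93 ± 0.17, adjusted p = 0.0298), the GATA factors of endoderm and heart, were lower in JN too. They were 2 of 16 family members, and 2 others, Klf2 (1.53 ± 0.35, adjusted p = 0.0455) and Lmo4 (1.05 ± 0.23, adjusted p = 0.0421), were higher. Lower as well were 3 of 5 yolk sac endoderm markers, 2 of 3 hepatoblast markers tested, 1 of 4 macrophage and myeloid markers tested, 1 of 5 yolk sac mesoderm markers and 1 of 6 endothelial markers, the cadherin gene Cdh5 (-3.22 ± 0.52, adjusted p = 0.0229). Their part in the Gata2 difference was not tested, and clone, sex of the clone and protocol cannot be told apart.

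Lmo2 and Tal1 went opposite ways with time in the clones. In A9 Lmo2 went from 6.23 at d10 to 1.96 at d15 and Tal1 from 1.05 to 0.328, while in JN Lmo2 went from 1.06 to 3.11 and Tal1 from 0.301 to 0.539. The difference between the clones in the d15 over d10 change was 3.03 ± 0.29 for Lmo2 (adjusted p = 0.008) and 2.33 ± 0.34 for Tal1 (adjusted p = 0.0413), and 0.261% of transcripts were called in that direction and 0.0443% in the other. This test was also chosen after seeing the data, has 1 library per clone and day, and takes its spread from the tissue replicates alone. Both calls were lost without either E9.25 ysE library, as was every other call over all transcripts. The differences there were 3.08 for Lmo2 and 2.38 for Tal1. Of 6 endothelial markers 2 were called in the same direction, the receptor genes Tie1 (4.88 ± 0.42, adjusted p = 0.008) and Kdr, at 19.0 and 3.10 in A9 and 2.36 and 5.40 in JN (3.62 ± 0.41, adjusted p = 0.0132). The other 4 did not pass, and Cdh5 was at 7.91 and 9.39 in A9. Fli1, chosen after its values were seen and the 1 called of 10 genes in the progenitor list, was called too (3.36 ± 0.35, adjusted p = 0.00846). The summed endothelial markers were 47.4 in A9 d10, 24.6 in A9 d15, 8.17 in JN d10 and 22.0 in JN d15. Of the 16 erythroid target genes 2 were called, and 1 of 6 megakaryocyte markers, Itga2b (3.38 ± 0.33, adjusted p = 0.008). The embryonic globin gene Hba-x, at 6.67 and 1.14 in A9 and 6.89 and 12.6 in JN, was 1 of the 2 (3.23 ± 0.33, adjusted p = 0.00844), and Hbb-y the other (2.81 ± 0.40, adjusted p = 0.0348). The part of endothelial cells and megakaryocytes in the Lmo2 and Tal1 values was not tested.

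**Figure D4:**
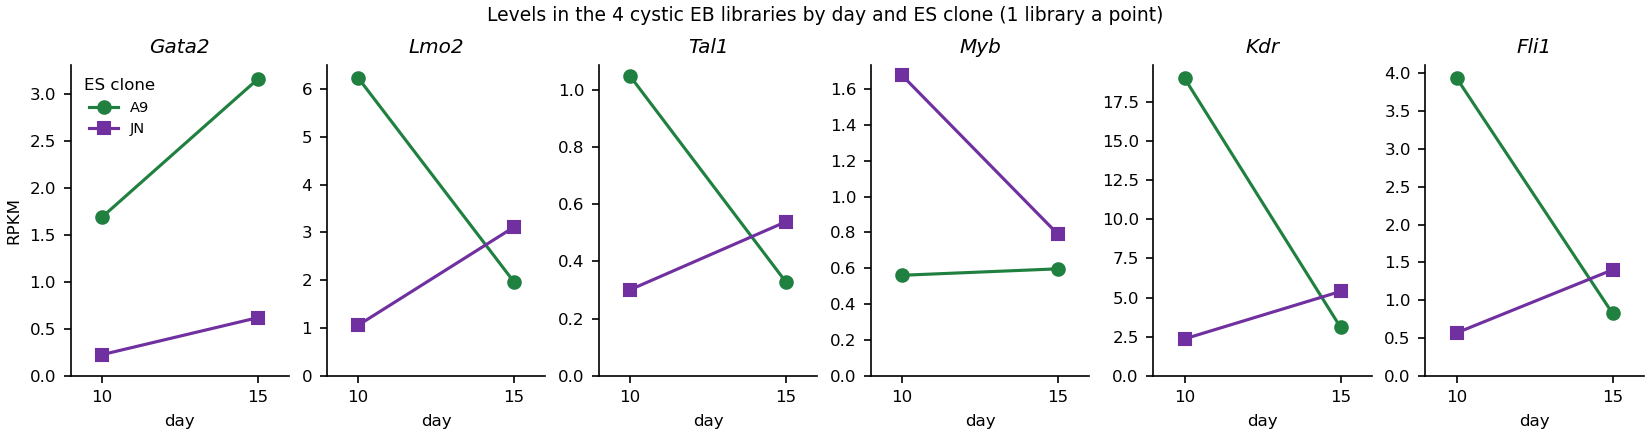
RPKM of 4 factors, the endothelial marker Kdr and the progenitor list gene Fli1 at d10 and d15 in ES clones A9 (green circles) and JN (purple squares), with 1 library per point. Gata2 is higher in A9 on both days, and the lines of Lmo2, Tal1, Kdr and Fli1 cross.

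The promoters were then examined in H3K4me3 ChIP-seq of E12.5 VYS, a mark of active starts. Of the 8 factors with a start in the RefSeq table, 6 had a peak within 1 kb of a start, where 46.4% of 27025 genes with a start had one. They were Gata2, Klf1, Tal1, Runx1, Myb and Zfpm1. Their scores ran from 87.8 to 3039, where the median of the 22343 peaks was 863. The peak over the second start of Runx1 was at chr16:92693087-92698800, 5714 bases wide and with a score of 3039, while the first start had a peak 334 bases away with a score of 423. The peak at Tal1, chr4:115056230-115059746, covered both starts of the gene with a score of 2108. The Klf1 peak, chr8:84901982-84903784, began at the start itself and had a score of 895.

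Scores were low at the other starts. They were 104 and 397 at the 2 starts of Gata2 and at most 484 at Zfpm1 and 124 at Myb. Thus 3 of the 8 factors kept a peak when the lower-scoring peaks were left out, where 36.3% of genes did. Gata1, whose chrX gene lies at chrX:7959260-7976663, and Gfi1b had no peak in the gene or within 1 kb of it. Lmo2 and Nfe2 were not counted, having no start in the table. Lmo2 (chr2:103957903-103981878) had 1 peak inside the gene, chr2:103969038-103971680, with a score of 1615. Nfe2 (chr15:103248212-103258403) had 4 in the gene or within 1 kb of it, the best with a score of 314. The layer of the yolk sac that gave each peak cannot be told apart in this single sample.

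DNA methylation of the promoters was covered by few reads, 0 to 61 per start and library. A read that spans several CpGs is counted at each of them, here and below. The median over the 4 to 7 members with at least 5 reads was 26.1% for the CxF and 20% for the FxC cross in ysE. In the same order it was 22.2% and 21.4% in liver and 36.2% and 16.7% in cEBs. The mean of both liver medians, 21.8%, became 4.17% within 500 bases of the starts and 10.7% with CpG calls of at least 2 reads. Over all promoters the ysE medians were 42.9% and 40%, the liver medians 60% and 62.5%, and the cEB medians 75% and 68.8%. Single promoters rest on few reads and were not tested. The second Runx1 start had 3 of 21 and 0 of 6 reads methylated in ysE, 0 of 2 and 2 of 3 in liver, and 3 of 16 and 0 of 10 in cEBs. The Klf1 start had 10 of 17 and 3 of 3 in ysE, 0 of 4 and 0 of 6 in liver, and 1 of 1 and 3 of 5 in cEBs.

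Gene bodies gave more reads, and here the lowest values of Runx1 and Myb were those of ysE. Runx1 (chr16:92601466-92826074) was at 71.0% of 1801 reads and 68.6% of 1043 in ysE, 81.5% of 1688 and 84.3% of 2023 in liver, and 89.1% of 1940 and 84.7% of 1215 in cEBs. The ysE libraries lay below all others, with 95% exact binomial intervals of 68.9 to 73.1% and 65.6 to 71.4%. Myb (chr10:21124930-21160984), the smaller gene, had ysE values of 61.7% and 54.9%, liver values of 70.9% and 83.8% and cEB values of 87.6% and 84.5%. Its CxF intervals in ysE, 54.8 to 68.3%, and liver, 65.7 to 75.7%, overlapped. Tal1 (chr4:115056426-115071755) had the lowest methylation of the members with over 40 reads in each library, with ysE at 33.6% and 25%, liver at 48.6% and 33.6% and cEBs at 64.5% and 61.7%. The ysE and liver values of Tal1 overlapped, and all 4 lay below both cEB libraries, although the interval of the CxF liver library, 36.7 to 60.7%, overlapped those of the cEBs, 56.4 to 72.0% and 46.4 to 75.5%.

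Over all genes the gene body medians had the same order, with ysE at 71.9% and 66.7%, liver at 79.0% and 81.0% and cEBs at 86.1% and 81.7%, the order seen in Runx1 and Myb. Tal1 lay below the lower quartile of all gene bodies in each of the 6 libraries. Zfpm1 did not follow the order, with ysE at 71.8% and 76.9%, liver at 67.7% and 70.7% and cEBs at 75.7% and 72.5%. Since 2 libraries per tissue allow no p under 0.333 in an exact permutation test (two-sided), no test between tissues was made. Intervals cover counting error only. They treat CpGs on the same read as independent and so may be too narrow. Gata1 on chrX was not analysed here, nor was Nfe2 in liver.

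**Figure D5:**
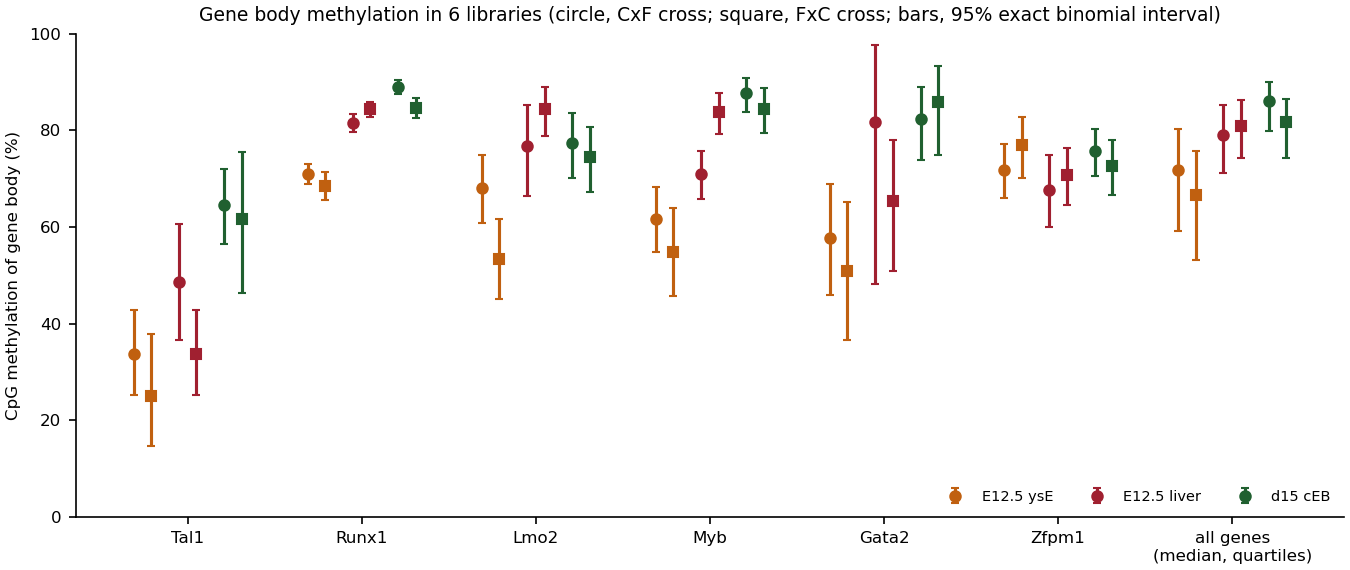
CpG methylation over the gene bodies of 6 factors in percent, with 95% exact binomial intervals, in 2 libraries each of E12.5 ysE, E12.5 liver and d15 cEBs (circle, CxF cross, square, FxC cross), beside the median and quartiles of all genes. Tal1 lies below the quartiles of all genes, and Zfpm1 shows no order of tissues.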

How the data were processed

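RNA-seq, WGBS and ChIP-seq reads had been aligned with GSNAP, as the study's methods state. The build was mm10, as the submitters' processing notes state. The deposited counts per RefSeq transcript and the deposited RPKM values were made by the authors with custom scripts, 1 column per library. Whether counting used strand is not given in the sources used here. For each CpG the deposited WGBS values are the percent of methylated reads and their number, called by the authors with BisSNP, and the deposited H3K4me3 peaks carry the authors' MACS score (version 1.4.2, 1 ChIP sample).

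The members and gene lists were chosen with earlier results of these data known. Counts were fitted in R 4.3.3 with edgeR 4.0.16 (TMM, filterByExpr, glmQLFit over 5 tissues with the 4 cEB libraries as 1 tissue, Benjamini-Hochberg, 5% threshold), a procedure tested on simulated data. The cEB days and clones were fitted on the 4 cEB libraries, and the day by clone difference on all 11. The clone fit held a day term, but not where a library was left out. The day fit held a clone term only as the replicate block. DESeq2 1.42.0, RLE size factors, no count filter, the transcript with the lowest mean count, 2-tissue fits, a replicate block, within-protocol fits and leaving out each library in turn, other than the single E12.5 ysE library, were alternatives (for the day by clone difference, the tissue libraries). Methylation was summed over the reads at each CpG within 1 kb of starts (at least 5 reads) and over gene bodies, and peaks were assigned within 1 kb. Total counts were 40453779 to 169981821 per library. Replicates are litter pools or, in the cEBs, 2 ES clones at 2 days each, which entered the tissue fits as 4 replicates. Nothing further says how the pools are related. The p-values therefore measure the spread between these samples, which for the cEBs is not a spread between independent clones.

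The members and the genes named from each list were the 10 factors, the gene with the highest mean level, and those with the largest called change in each direction, with any other gene named after its values were seen. The replicate letters mark the same ES clone at d10 and d15 of the cEBs, where the differences between A and B correlated with r = 0.638. Between tissues r was -0.0859 to 0.174, and the letters were not taken to pair tissues. The tables of exon parts and of repeats were not used here.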

Additional observations from a re-analysis of the deposited data

Results flagged for a closer look

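In the cEBs the levels of Gata1 and Zfpm1 had 1 library set apart from the other 3. Gata1 was at 0.106 RPKM (11 reads) in the A9 d15 library, against 0.158 to 0.168 (18 to 37 reads) in the others. Zfpm1 was at 1.49 RPKM in the same library, against 2.36 to 2.54. These were 2 of 10 groups examined, and chance alone sets apart about 1 in 20 groups of like libraries. The libraries here differ in clone, day and protocol, and counting error, as in the 11 Gata1 reads, was not taken into account.

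The d15 over d10 change differed between the ES clones for Tal1, by 2.33 on the log2 scale, and for Lmo2, by 3.03, in a test of that difference. Each clone had 1 library per day, and clone and library protocol cannot be told apart. Both calls were lost without either E9.25 ysE library, as was every other call over all transcripts.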

How the results depend on the processing

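Of 1323 alternative values for single factors, 1224 kept their direction and side of the threshold, 41 lost and 42 gained a call, and 16 changed sign. Counts of factors called higher in liver than in mesoderm were 8 in the fit of the 2 tissues and 8 with the replicate block, and 1 to 7 with 1 library left out. Factors called lower in E12.5 than E9.25 ysE were 8 in the fit of the 2 tissues and 2 to 6 with 1 library left out. Against E9.25 ysE, 4 were called higher in the cEBs with RLE size factors and 4 with DESeq2 (1 to 4 with 1 library left out), and 5 lower within dUTP libraries (2 to 5). Within ScriptSeq libraries 1 was called higher than in liver. Left-out libraries gave 0 to 1 call between clones and 0 to 2 for the day by clone difference. The replicate block changed no other count by over 1.5 times. Counts of calls over all transcripts moved between these settings too. The signs that changed belonged to differences that had not passed the test. In cEBs against mesoderm Gata2 ran from -0.57 (without A9 d15) to 0.72 with 1 library left out (-0.17 without mesoderm replicate B), and was -0.000563 with the replicate block and -1.58 within dUTP libraries, and against E9.25 ysE it was -0.19 within dUTP libraries. With 1 library left out, the d15 over d10 change ran from -0.72 to 3.10 for Gata2, -1.29 to 0.48 for Tal1, -0.49 to 0.036 for Runx1, -1.31 to 1.22 for Lmo2, -1.07 to 0.000442 for Nfe2 and -1.31 to 0.30 for Myb, and the JN over A9 difference from -0.73 to 0.38 for Klf1, -1.37 to 0.23 for Tal1, -0.25 to 0.43 for Runx1, -0.92 to 0.51 for Nfe2 and -0.13 to 0.55 for Zfpm1. With a library left out, these day fits held no clone term and these clone fits no day term. RLE size factors moved the median of all transcripts by 0.11 between liver and mesoderm and by 0.16 between the ysE stages. Peaks in the upper 50% by score left 3 factors with a peak. The mean of the 2 libraries' median promoter methylation, 23.0% in ysE and 21.8% in liver, became 31.3% and 4.17% within 500 bases and 32.8% and 10.7% with CpG calls of at least 2 reads, and in liver 17.3% with at least 20 reads and 16.7% with at least 1. The cause was not tested for any of these. The promoter methylation values and the E12.5 ysE levels rest on few reads.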
